A study of Mus musculus with 12 samples.

Results

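The 8 genes described here encode secretory granule proteases of mast cells and basophils. They were Tpsb2, Tpsab1, Cma1, Mcpt4, Mcpt8, Cpa3, Prss34 and Gzmb, 8 of the 56748 gene identifiers counted in each library. The genes were chosen by name, with their levels in both groups and the difference between the groups already known, so levels and differences of the 8 are given below as a description, without a test. RNA sequencing was performed on primitive bone marrow (BM) cells, the CD45.2+ Lin−Sca+Kit+ (LSK) cells of mice that had received SCLtTA/BCR-ABL donor marrow. In this model SCL regulatory sequences drive the tetracycline transactivator (tTA) in stem and progenitor cells. BCR::ABL1, the fusion kinase of chronic myeloid leukaemia (CML), is expressed when tetracycline (TET) is withdrawn. The BCR::ABL1+ group (CML 2wk, n = 6) had been off TET for 2 weeks, after 2 weeks on it following transplantation, and the BCR::ABL1− group (CTRL, n = 6) had stayed on TET. Both groups carried the same transgenes, both were B6.SJL CD45.1 recipients aged 8 to 12 weeks given 2 doses of 4.25 Gy irradiation, and both received cells from a frozen pool of donor marrow. Every CTRL library was labelled male and every CML 2wk library female, whereas the methods name recipients and donors of both sexes. By the labels, sex and group cannot be told apart.

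Mast cells and basophils store proteases in their granules, in active form and bound to serglycin, a proteoglycan whose side chains are sulphated. Tryptases (Tpsb2, Tpsab1) cut after basic residues and form tetramers, chymases (Cma1, Mcpt4) belong to the chymotrypsin-like fold, and carboxypeptidase A3 (Cpa3) trims residues from the C-terminal end of peptides. Mcpt8 and Prss34 are proteases known chiefly from basophils, whereas Gzmb, granzyme B, is best known from cytotoxic lymphocytes and is also made by mast cells and basophils. Both lineages descend from haemopoietic progenitors, and transcripts such as Cpa3 are known to appear in progenitors before granules form. In bulk RNA, a change in the number of cells that make a transcript and a change in the amount per cell cannot be told apart.

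The sequences before the start sites are shown first, since several of these genes share a chromosomal cluster or varied together. RefSeq promoter sequences (build GRCm38.p6, 250 bases before to 50 bases after the start of the gene) were held for 6 of the 8 genes, not for Tpsb2 and Tpsab1. They were searched on both strands for GATA words (the word AGATAA or its variants AGATAG and TGATAA, and the related word TGATAG, all of the type bound by Gata1 and Gata2), for RUNX words (TGTGGT and its variant TGCGGT) and for M-box words (CATGTG and its reverse complement CACATG, of the type bound by Mitf). Shown are Cpa3 at chr3:20242132-20242431 (minus strand), the most abundant of the 8, Cma1 at chr14:55944626-55944925 (minus strand), whose level followed that of Cpa3 most closely, and the basophil proteases Mcpt8 at chr14:56085148-56085447 (minus strand) and Prss34 at chr17:25298144-25298443 (plus strand), whose levels differed in direction. Each is written 5′ to 3′ along the gene's strand, with GATA and RUNX words in capitals.
Cpa3: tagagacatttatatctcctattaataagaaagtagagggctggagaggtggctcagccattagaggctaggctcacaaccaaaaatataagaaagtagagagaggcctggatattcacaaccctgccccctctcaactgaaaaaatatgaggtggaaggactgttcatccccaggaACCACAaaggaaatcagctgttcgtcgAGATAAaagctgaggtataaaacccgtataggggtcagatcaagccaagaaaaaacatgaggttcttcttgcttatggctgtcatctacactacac
Cma1: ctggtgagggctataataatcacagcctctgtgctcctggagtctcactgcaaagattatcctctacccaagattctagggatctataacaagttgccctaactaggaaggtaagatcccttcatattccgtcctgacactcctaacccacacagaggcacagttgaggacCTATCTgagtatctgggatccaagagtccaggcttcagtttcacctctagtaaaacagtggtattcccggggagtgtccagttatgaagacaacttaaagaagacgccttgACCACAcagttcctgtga
Mcpt8: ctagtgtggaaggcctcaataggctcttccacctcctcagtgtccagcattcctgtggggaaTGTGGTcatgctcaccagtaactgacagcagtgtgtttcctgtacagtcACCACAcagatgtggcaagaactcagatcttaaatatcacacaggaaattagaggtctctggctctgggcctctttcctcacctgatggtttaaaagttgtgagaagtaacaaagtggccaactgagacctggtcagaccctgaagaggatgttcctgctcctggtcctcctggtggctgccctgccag
Prss34: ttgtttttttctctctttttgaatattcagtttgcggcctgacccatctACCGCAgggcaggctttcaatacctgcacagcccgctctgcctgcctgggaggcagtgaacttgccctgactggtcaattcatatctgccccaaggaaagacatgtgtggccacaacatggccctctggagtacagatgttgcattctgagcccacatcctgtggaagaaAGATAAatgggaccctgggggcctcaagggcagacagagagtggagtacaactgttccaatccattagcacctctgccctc
A GATA word began 46 bases before the start in Cpa3, 79 bases before it in Cma1, 103 bases before it in Mcpt4 and 31 bases before it in Prss34, so 4 of 6 promoters held one, and Mcpt8 and Gzmb held none. Among all 32851 mouse promoters of the table, 29.8% held a GATA word in the same window. RUNX words stood in 6 of 6 promoters, with 2 each in Mcpt8 and Gzmb, against 22.4% of all promoters. Only Prss34 among the 6 held an M-box word, beginning 100 bases before the start, against 14.2% of all promoters. No match overlapped another. A match is a run of letters and says nothing about occupancy.

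Library totals ran from 22804754 to 41832868 counts in CTRL and from 16150817 to 25070105 in CML 2wk. A gene with 0 counts could therefore lie as high as 0.0724 to 0.133 CPM (counts scaled to 1000000 counts a library) in CTRL and 0.112 to 0.183 in CML 2wk, the value of 3 counts, which covers counting error only. All levels below are CPM on library sizes scaled by the trimmed mean of M-values (TMM). Summed CPM of 9 LSK markers was 2372 to 2747 in CTRL and 1197 to 1647 in CML 2wk, and no marker of the 11 cell type lists examined was at 0 in every library of a group. CML 2wk 2 stood apart, with 22965 genes detected against 24870 to 25726 in the other CML 2wk libraries and a summed stromal marker level of 3059 CPM. CML 2wk 4 had 624 CPM of stromal markers, the other 4 CML 2wk libraries 96.8 to 143.4 CPM and the CTRL libraries 171.1 to 207.9 CPM. Since CML 2wk 2 was also the highest library for 6 of the 8 proteases, differences are given with and without it, and the part of stromal RNA in them was not tested.

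Summed over the 8 proteases, the level was 64.6 CPM at the lowest, 91.4 at the median and 133.5 at the highest in CTRL, and 388.5, 762.1 and 2159 CPM in CML 2wk. For 7 of the 8, every CML 2wk library lay above every CTRL library, a separation seen in that direction for 16.9% of the 18438 genes tested, and nothing is read from that count because this contrast chose the genes. Prss34 was the exception and had the lower median in CML 2wk. All 8 passed the filter on low counts. Tpsb2, Tpsab1 and Mcpt4, at 0 in 1, 4 and 3 CTRL libraries, met it through CML 2wk, where they were high. The directions of these genes therefore follow in part from the filter. In the genome-wide fit 30.6% of genes were called higher and 29.0% lower in CML 2wk (59.5% called at an adjusted p under 0.05 in edgeR's quasi-likelihood test), with a median log2 fold change of 0.07 over all genes.

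Cpa3, the carboxypeptidase, was the protease already abundant without BCR::ABL1. In CTRL its level was 41.8 CPM at the lowest, 60.4 at the median and 94.3 at the highest, and in CML 2wk 155.8, 340.5 and 910.6. The groups did not overlap, and within CML 2wk the library CML 2wk 2 stood far above the next at 394.4 CPM. The difference between the groups was 2.57 on the log2 scale, and 2.12 without CML 2wk 2.

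The tryptases were at or near 0 in most CTRL libraries. Tpsb2, the gene of the tetrameric tryptase, had 0 CPM at the lowest, 0.44 at the median and 3.81 at the highest in CTRL, against 48.6, 110.8 and 486.6 in CML 2wk. Every CML 2wk library was above the highest CTRL library, CTRL 6. The log2 difference was 7.53, with 6.83 without CML 2wk 2 and 8.81 without CTRL 6. Tpsab1, which RefSeq lists as a transcribed pseudogene in the C57BL/6J reference, had no count in 4 of 6 CTRL libraries and 7 counts in all. In CML 2wk its level was 1.87 CPM at the lowest, 6.996 at the median and 36.6 at the highest, so the groups did not overlap. Its fitted log2 difference of 8.02 rests on those 7 counts. That difference became 9.97 without CTRL 6, which held 6 of them, and 7.17 without CML 2wk 2. Within CML 2wk there were 11.2 to 25.95 CPM of Tpsb2 for each CPM of Tpsab1, not corrected for length.

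The chymases were likewise low in CTRL. Cma1, a chymase of connective tissue mast cells, was at 0.44 CPM at the lowest, 0.82 at the median and 8.63 at the highest in CTRL, and at 94.1, 180.4 and 502.4 in CML 2wk. The groups were separated by more than the whole CTRL range, with a log2 difference of 6.40. That difference was 5.98 without CML 2wk 2 and 7.24 without CTRL 6. Mcpt4 lay at 0 in 3 of 6 CTRL libraries, with a median of 0.022 CPM, under the level of 3 counts, and 2.15 CPM in CTRL 6. In CML 2wk Mcpt4 was 5.79 CPM at the lowest, 8.98 at the median and 26.6 at the highest. These groups did not overlap either, but CML 2wk 2, highest for the other chymase, was the lowest CML 2wk library for Mcpt4, and CML 2wk 4 was the highest. The fitted log2 difference of 4.83 became 7.33 without CTRL 6, which held 57 of the 67 CTRL counts. Without CML 2wk 2 it was 4.99. Of the 50-base words of the transcripts, 5.38% in Cma1 and 5.48% in Mcpt4 occur in another gene, and in the other 6 proteases none do.

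The basophil proteases differed in direction by their medians. Mcpt8 had 9.74 CPM at the lowest, 15.5 at the median and 17.1 at the highest in CTRL and 61.7, 70.9 and 118.6 in CML 2wk. It was the most even of the 8 within CML 2wk and did not overlap between groups. Its log2 difference was 2.43, and 2.26 without CML 2wk 2. Prss34 had 5.05, 10.02 and 15.6 CPM in CTRL and 0.44, 2.99 and 9.97 in CML 2wk. Its groups overlapped, with a log2 difference of -1.18. That difference was -1.08 without CML 2wk 2 and -0.95 without CML 2wk 6, the lowest library. The ratio of Prss34 to Mcpt8 did separate the groups, at 0.334 to 1.065 in CTRL and 0.0072 to 0.123 in CML 2wk.

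Gzmb, granzyme B, had 1.98 CPM at the lowest, 3.49 at the median and 9.11 at the highest in CTRL and 16.5, 31.7 and 96.1 in CML 2wk. The groups did not overlap, and the log2 difference was 3.34, or 2.89 without CML 2wk 2. Markers of T and natural killer (NK) cells, another usual source of granzyme B, were mostly lower by median in CML 2wk, in 13 of 15 cases. Their summed level had the higher median in CML 2wk, 119.1 CPM against 105.9 in CTRL. It ran from 85.7 to 109.6 CPM in CTRL and from 89.1 to 203.7 in CML 2wk (two-sided exact permutation p = 0.0779, adjusted p = 0.0952 over 11 marker lists). The sum was highest in CML 2wk 6, which was the lowest CML 2wk library for Gzmb. Gzma, granzyme A, was between 0 and 1.10 CPM in every library, with a log2 fold change of -0.27 (SE 0.82, adjusted p = 0.791 in edgeR). Prf1, perforin, was at 2.22 CPM or less in every library and did not pass the filter on low counts. Which cells the Gzmb transcripts came from was not tested.

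**Figure D1:**
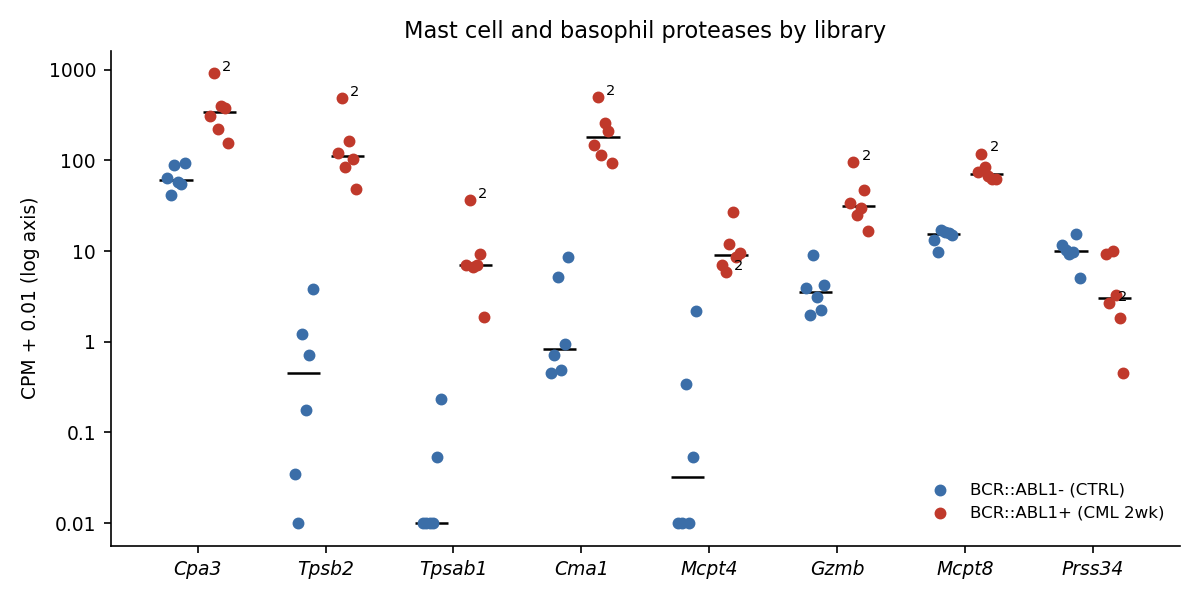
Level of each of the 8 proteases in each library, as CPM + 0.01 on a log axis, with CTRL in blue, CML 2wk in red, 6 libraries a group, medians as black bars and the library CML 2wk 2 marked 2. For 7 genes all red points lie above all blue points, and for Prss34 the groups overlap with the lower median in red (2.99 against 10.02 CPM).

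Divided by gene length, the order of the 8 genes changed with the group. In CTRL the median level per kilobase was 39.8 CPM for Cpa3, 15.5 for Mcpt8, 8.22 for Prss34, 2.43 for Gzmb, 0.753 for Cma1 and 0.275 for Tpsb2, with Mcpt4 at 0.020 and Tpsab1 at 0. The first 3 kept that order among themselves in 6 of 6 CTRL libraries, while Mcpt4 exceeded Tpsab1 in 3 of 6. In CTRL 6, however, Cma1 at 7.92 CPM per kilobase exceeded Prss34 at 4.14. In CML 2wk the median per kilobase was 224.4 CPM for Cpa3, 165.5 for Cma1, 71.1 for Mcpt8, 69.5 for Tpsb2, 22.1 for Gzmb, 8.10 for Mcpt4, 3.34 for Tpsab1 and 2.45 for Prss34. Cpa3 exceeded Cma1 in 6 of 6 CML 2wk libraries and Cma1 exceeded Mcpt8 in 6 of 6. Mcpt8 and Tpsb2 could not be ordered, with Mcpt8 the higher in 3 of 6, and Tpsab1 exceeded Prss34 in 4 of 6. By these medians Cma1 moved from the fifth place to the second, and Prss34 from the third to the last.

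The make-up of the protease transcripts differed between the groups as well as their amount. Cpa3 made up a median of 66.8% of the summed CPM of the 8 genes in CTRL (60.8% to 70.6%) and 41.9% in CML 2wk (39.7% to 45.6%). Cma1 went from 1.07% (0.474% to 6.47%) to 23.8% (20.6% to 26.9%), and Tpsb2 from 0.490% (0% to 2.85%) to 15.9% (12.5% to 22.5%). Prss34 went from 11.9% (3.78% to 17.3%) to 0.287% (0.114% to 1.79%). None of these 4 shares overlapped between the groups. Gzmb had overlapping shares, 2.505% to 6.985% in CTRL and 3.16% to 5.755% in CML 2wk, although its levels did not overlap. The ratio of Cma1 to Cpa3 was narrow in CML 2wk, 0.483 to 0.647, although the highest of those libraries held 5.34 times the Cma1 and 5.84 times the Cpa3 of the lowest.

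**Figure D2:**
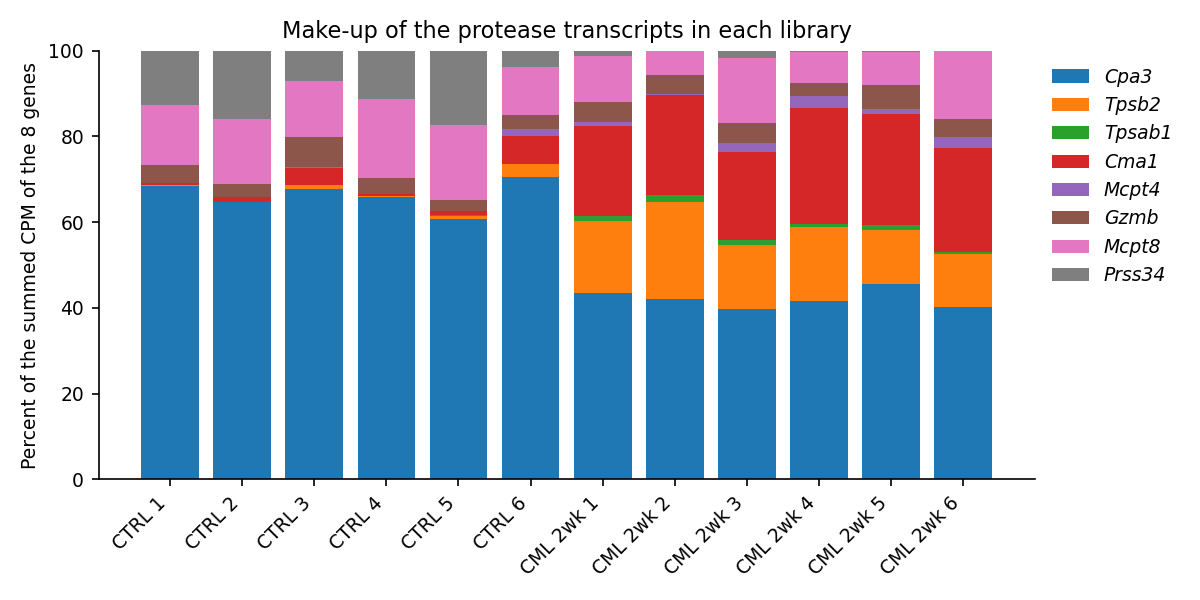
Percent of the summed CPM of the 8 proteases contributed by each gene, as stacked bars for the 6 CTRL and 6 CML 2wk libraries. Cpa3, Mcpt8 and Prss34 fill most of each CTRL bar, whereas Cpa3, Cma1 and Tpsb2 fill most of each CML 2wk bar, with Cpa3 at 39.7% to 45.6%.

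Within the BCR::ABL1+ group, 5 of the proteases varied together from library to library. The SD of log2 CPM over the 6 CML 2wk libraries was 1.58 for Prss34, 1.35 for Tpsab1, 1.12 for Tpsb2, 0.88 for Cma1, 0.87 for Cpa3 and for Gzmb, 0.77 for Mcpt4 and 0.36 for Mcpt8, against a median of 0.30 over all genes tested. For Mcpt8 the SD fell to 0.19 without CML 2wk 2, below the median of 0.26 then found over all genes. Among the 28 pairs of proteases, 22 had a positive Pearson r of log2 CPM, and 8 pairs passed an adjusted p of 0.05 in two-sided exact permutation tests over all 720 orders of the 6 libraries. These 8 pairs came from the 10 possible among Tpsb2, Tpsab1, Cma1, Cpa3 and Gzmb, with r from 0.902 to 0.985. The closest pair was Cma1 and Cpa3, with r = 0.985 (exact permutation p = 0.00139, the smallest these libraries allow, adjusted p = 0.0233) and Spearman's rho of 1.0 (exact permutation p = 0.00278, adjusted p = 0.0778). Over the 28 pairs 0 passed by Spearman's rho after adjustment and 6 had an unadjusted p under 0.05.

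The 2 extreme libraries weighed heavily in several of these relations. With the 2 libraries farthest from the median of the first gene left out, Cma1 and Cpa3 kept r = 0.964, Tpsab1 and Gzmb 0.949, and the other 6 pairs that had passed 0.506 to 0.796. For Tpsb2 and Tpsab1 (r = 0.940, exact permutation p = 0.0181, adjusted p = 0.0506), r was -0.06 over the remaining 4 libraries, so that relation rested on the libraries left out, as did that of Tpsb2 and Gzmb (r = 0.907, then 0.07). Without CML 2wk 2 alone, r of the 8 pairs was 0.727 to 0.960. Mcpt8 went with Cpa3 at r = 0.705 over 6 libraries and at -0.05 without CML 2wk 2 (exact permutation p = 0.136 over 6, adjusted p = 0.272). Mcpt4 had a negative r with 6 of the other 7 proteases, between -0.13 and -0.47. None had an adjusted p under 0.05 in the exact permutation test. These negative values leaned on CML 2wk 2, the lowest library for Mcpt4. Without it, r of Mcpt4 was 0.50 with Cma1, 0.48 with Tpsb2, 0.32 with Cpa3 and 0.12 with Tpsab1. With Mcpt8 and Gzmb it was then -0.03 and -0.11. Levels in a library share its depth and scaling factor.

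**Figure D3:**
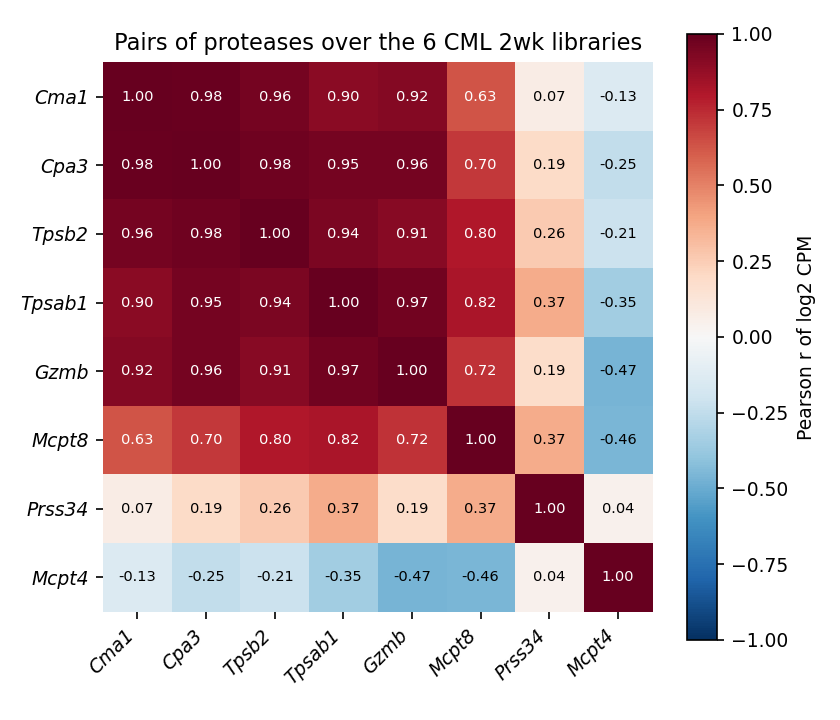
Pearson r of log2 CPM over the 6 CML 2wk libraries for each pair of the 8 proteases, from -1 in blue to 1 in red. Cma1, Cpa3, Tpsb2, Tpsab1 and Gzmb form a block with r of 0.90 or more, and Mcpt4, Prss34 and Mcpt8 stand outside it. Mcpt8 had r of 0.63 to 0.82 with the genes of the block.

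Genes with the profile most like the 8 proteases over the CML 2wk libraries were looked for among 13267 genes, by Pearson r with the mean standardized log2 CPM of the 8. Among the highest were Castor2 (r = 0.993), a gene of the mTORC1 pathway, Alox5 (0.989), the 5-lipoxygenase of leukotriene synthesis, and Map7d1 and Ptpn21 (each 0.988). With 13267 genes ranked over 6 libraries, some r this high can arise by chance, and none was tested. The mean also took in Mcpt4, Prss34 and Mcpt8, which stood outside the block of proteases that varied together. Likeness within the BCR::ABL1+ group did not go with the direction between groups. Alox5 rose from a median of 9.25 CPM to 24.4 (log2 fold change 1.33, SE 0.25, adjusted p = 3.36e-04 in edgeR), whereas Castor2 fell from 22.2 to 9.04 CPM (-1.23, SE 0.13, adjusted p = 1.83e-06 in edgeR) and Map7d1 and Ptpn21 fell by 0.57 and 0.78 on the log2 scale. Over the 5 libraries without CML 2wk 2 the ranks of these 4 genes became 23, 5, 22 and 53 in the order given, with Alox5 the nearest to the top.

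On the chromosomes 7 of the 8 genes lie in 2 clusters, with Cpa3 alone on chromosome 3. In the GRCm38 gene order, Cma1, Mcpt4, Mcpt8 and Gzmb stand on chromosome 14 in a run with Cma2, Mcpt1, Mcpt9, Mcpt2, Ctsg and other granzyme genes, and Prss34, Tpsab1 and Tpsb2 on chromosome 17 with Prss28, Prss29 and Tpsg1. The other listed Prss genes, from Prss33 to Prss27, lie apart from Prss34, with many other coding genes between. Only 3 of the 21 listed neighbours were abundant enough to be tested, and all 3 were called, 2 higher and 1 lower. Over all genes tested 59.5% were called. Tpsg1 met the filter on low counts through CML 2wk and Prss30 through CTRL, the group where each was high. Their directions therefore follow in part from the filter. Ctsg, cathepsin G, between Mcpt8 and the granzymes, rose from 132.5 to 211.0 CPM in CTRL to 752.2 to 2012 in CML 2wk (log2 fold change 2.90, SE 0.21, adjusted p = 8.4e-08 in edgeR). Tpsg1, a membrane-anchored tryptase next to Tpsb2, had 8 counts over all CTRL libraries and 1.64 to 7.11 CPM in CML 2wk (5.95, SE 0.65, adjusted p = 2.35e-06 in edgeR, or 6.62 without CTRL 3). Prss30 fell from 0.724 to 1.39 CPM in CTRL to 0.061 to 0.640 in CML 2wk (-1.85, SE 0.41, adjusted p = 0.00126 in edgeR).

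Several neighbours were silent or nearly so. In all 12 libraries 8 neighbours had no count, namely Mcpt9, Gzmd, Gzmf, Gzmg, Gzmn, Prss29, Prss32 and Prss21. Mcpt1, a chymase of mucosal mast cells, had no count in any CTRL library and 145 counts in CML 2wk, of which 123 came from CML 2wk 2. Mcpt2, its close relative, had 4 counts in CTRL and 133 in CML 2wk, with 68 from CML 2wk 2 and 61 from CML 2wk 4. Cma2, next to Cma1, had 4 counts in CTRL and 30 in CML 2wk.

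**Figure D4:**
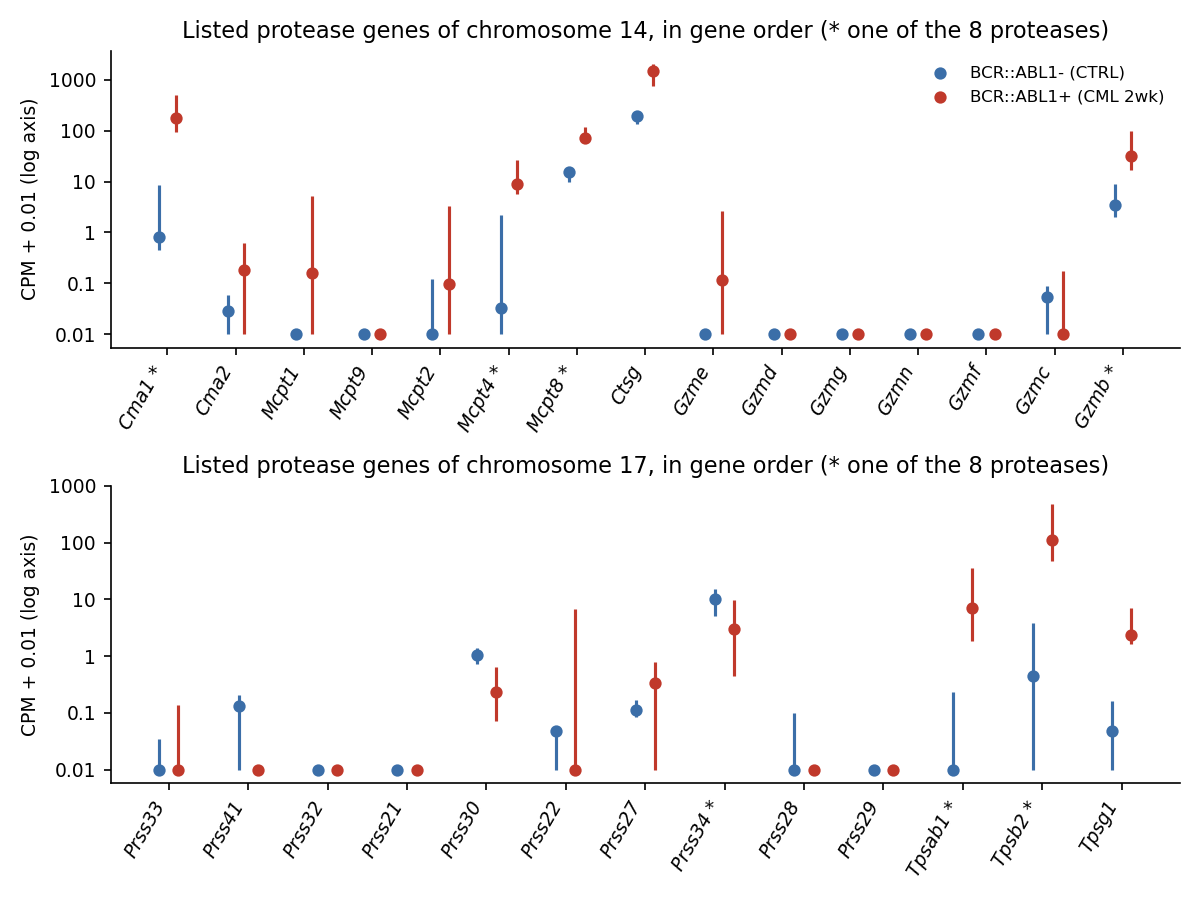
Level of the 8 proteases (starred) and their listed neighbours in gene order along chromosomes 14 and 17, as CPM + 0.01 on a log axis, with the median as a point and the range of 6 libraries as a line, CTRL in blue and CML 2wk in red. Between the abundant Ctsg and Gzmb lie 4 granzyme genes with no count in any library, Gzmd, Gzmg, Gzmn and Gzmf.

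The machinery that stores and activates the proteases changed in both directions. Of 31 granule assembly genes, all tested, 13 rose and 9 fell, with a median log2 fold change of 0.16 against 0.07 over all genes, of which 30.6% rose and 29.0% fell. Without CML 2wk 2 and 4, 13 rose and 13 fell. Among them were Ctsl (1.86, SE 0.22, adjusted p = 6.03e-06 in edgeR), a lysosomal cathepsin, Srgn, serglycin (1.23, SE 0.14, adjusted p = 4.56e-06), and Ctsc, the dipeptidyl peptidase that activates granule serine proteases (0.83, SE 0.11, adjusted p = 2.21e-05). Srgn was among the more abundant, at 382.5 to 466.1 CPM in CTRL and 631.9 to 1223 in CML 2wk. Hdc, the enzyme that makes histamine, rose from a median of 27.0 to 56.2 CPM (1.57, SE 0.37, adjusted p = 0.00221 in edgeR), and by 0.92 without CML 2wk 2, where it reached 222.1 CPM. Ndst2, the sulphotransferase needed for heparin in mast cells, had 44.5 to 51.2 CPM in CTRL and 26.2 to 55.5 in CML 2wk (-0.24, SE 0.15, adjusted p = 0.171 in edgeR), and passed the threshold only when CML 2wk 2 was left out, alone (-0.35, adjusted p = 0.0270) or with CML 2wk 4.

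Among protease inhibitors 16 of 28 genes were tested, 6 rose and 2 fell, with a median log2 fold change of 0.06. Cst7, cystatin F, rose by 1.46 (SE 0.18, adjusted p = 9.12e-06 in edgeR), Slpi, an inhibitor of neutrophil elastase and cathepsin G, by 1.201 (SE 0.22, adjusted p = 3.26e-04) and Serpinb1a, an intracellular inhibitor of granule serine proteases, by 1.2 (SE 0.11, adjusted p = 4.82e-07). Serpinb6a had 12.2 to 16.7 CPM in CTRL and 19.1 to 69.5 in CML 2wk (1.04, SE 0.28, adjusted p = 0.00542 in edgeR, or 0.57 without CML 2wk 2). For Serpinb9, the inhibitor of granzyme B, levels were 20.01 to 25.6 CPM in CTRL and 16.7 to 29.6 in CML 2wk (-0.04, SE 0.15, adjusted p = 0.835 in edgeR), while the level of Gzmb itself was without overlap. Serpina3g had 83.2 to 94.1 CPM in CTRL and 69.7 to 157.2 in CML 2wk (0.14, SE 0.15, adjusted p = 0.413 in edgeR).

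The listed transcription factors of the lineages fell more often than they rose. Of 25 genes listed, all tested, 14 fell and 7 rose, and the median log2 fold change was -0.25. Over all genes tested 29.0% fell and 30.6% rose, and 59.5% were called, against 84.0% of this list. Gata1 fell from 14.7 to 22.7 CPM in CTRL to 3.24 to 7.03 in CML 2wk (-1.82, SE 0.19, adjusted p = 1.47e-06 in edgeR), Gfi1b by 1.94 (SE 0.16, adjusted p = 2.5e-07) and Gata2 from 202.7 to 243.5 CPM to 70.8 to 148.1 (-1.10, SE 0.15, adjusted p = 1.64e-05). These 3 factors also serve erythroid, megakaryocytic and stem cells, and the summed erythroid markers stood at 126.7 to 219.1 CPM in CTRL and 17.5 to 54.3 in CML 2wk. Their part in the fall of Gata1 was not tested. Mitf, the mast cell factor, rose from 8.84 to 11.7 CPM in CTRL to 11.7 to 28.5 in CML 2wk (0.65, SE 0.19, adjusted p = 0.00766 in edgeR, or 0.40 without CML 2wk 2), Cebpa, which favours basophils over mast cells, by 0.51 (SE 0.13, adjusted p = 0.00274) and Bhlhe40 by 2.09 (SE 0.37, adjusted p = 2.35e-04, or 1.43 without CML 2wk 2).

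Receptors of mast cells and basophils changed in both directions. Of 27 genes 25 were tested, 13 rose and 5 fell, with a median log2 fold change of 0.66. The share called was 72.0%, against 59.5% of all genes tested, of which 30.6% rose and 29.0% fell. Without CML 2wk 2 and 4, which held the most stromal marker RNA, 11 rose and 9 fell. Mrgprb2, a receptor of connective tissue mast cells, had 19 counts over all CTRL libraries and 0.856 to 7.06 CPM in CML 2wk (4.92, SE 0.83, adjusted p = 1.39e-04 in edgeR, or 6.51 without CTRL 6). It met the filter on low counts through CML 2wk, where it was high, so its direction follows in part from the filter. Fcer1a, the IgE-binding chain of the high-affinity IgE receptor, rose from 1.58 to 4.13 CPM in CTRL to 16.4 to 180.4 in CML 2wk (4.46, SE 0.51, adjusted p = 3.89e-06, or 3.81 without CML 2wk 2), and Cd200r3, found on basophils and mast cells, from 0.783 to 2.15 to 7.98 to 54.9 CPM (4.32, SE 0.42, adjusted p = 8.43e-07). Ms4a2, the beta chain of the same IgE receptor, had 12.0 to 34.5 CPM in CTRL and 12.1 to 59.4 in CML 2wk (0.43, SE 0.32, adjusted p = 0.263 in edgeR), and passed only when the sixth library of each group was left out (0.79, adjusted p = 0.0291). Without CML 2wk 2 its log2 fold change was 0.05. Kit, the stem cell factor receptor by which the cells were sorted, fell by 0.86 (SE 0.10, adjusted p = 4.68e-06 in edgeR). Over a list of 11 mast cell or basophil markers 9 had the higher median in CML 2wk, but their summed level, at 377.5 to 443.9 CPM in CTRL and 270.1 to 1055 in CML 2wk, overlapped (two-sided exact permutation p = 0.541, adjusted over 11 marker lists also 0.541). That sum leaned on Gata2, 1 of the 11 and lower in CML 2wk. Its median was 216.5 CPM in CTRL, where the median sum was 404.1, and 98.9 in CML 2wk, where the median sum was 446.2.

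Among 21 proteases and lytic proteins of other granules 15 were tested, 7 rose and 1 fell, with a median log2 fold change of 0.44. The share called was 53.3%, against 59.5% of all genes tested, of which 30.6% rose and 29.0% fell. The neutrophil serine proteases Prtn3 (1.96, SE 0.18, adjusted p = 5.02e-07 in edgeR) and Prss57 (1.86, SE 0.18, adjusted p = 9.46e-07) rose, as did Prss16 (1.47, SE 0.21, adjusted p = 2.55e-05). Prtn3 stood at 203.5 to 270.0 CPM in CTRL and 611.2 to 1421 in CML 2wk. Its highest CML 2wk library was CML 2wk 6, where Cpa3, Cma1, Tpsb2, Tpsab1, Gzmb, Mcpt8 and Prss34 were lowest. The 10 summed neutrophil markers include Prtn3 and Ctsg, so their sum is not separate from the level of Prtn3. That sum was likewise highest in CML 2wk 6, at 8527 CPM against 3109 in CML 2wk 5, the lowest. By medians 4 of the 10 markers were higher and 6 lower in CML 2wk.

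**Figure D5:**
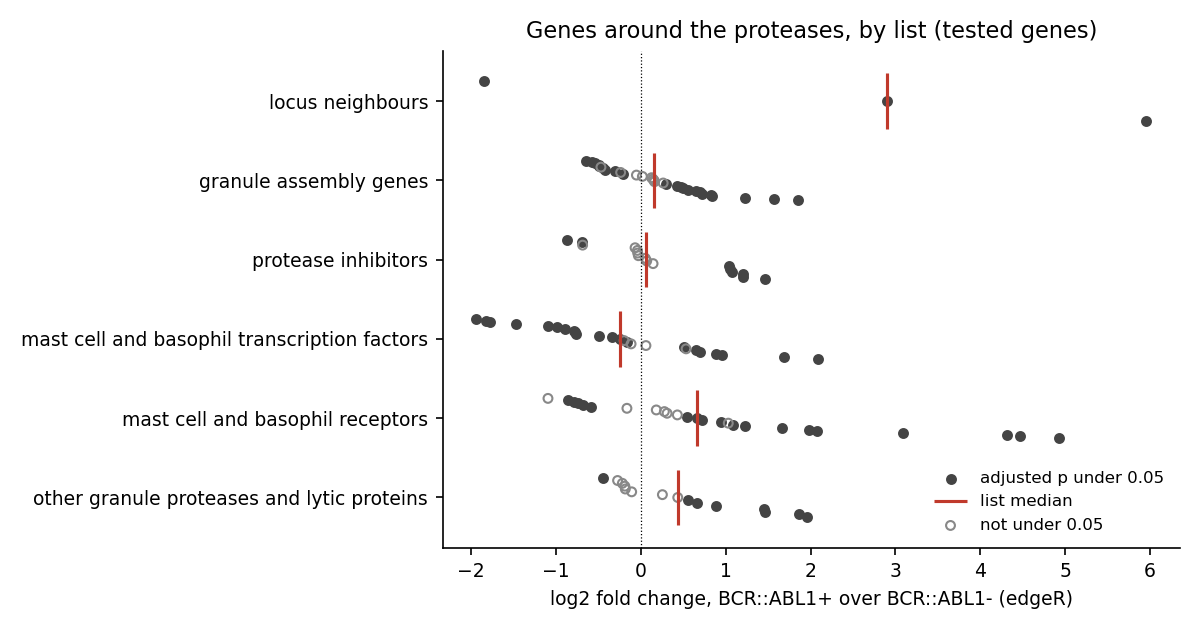
Log2 fold change of the tested genes of 6 lists around the proteases, BCR::ABL1+ over BCR::ABL1−, with filled points for an adjusted p under 0.05 in edgeR, open points for the rest and a red bar at each list's median. The median was 0.66 for receptors and -0.25 for transcription factors, against 0.07 over all genes.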

How the data were processed

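Total RNA of sorted LSK cells was sequenced in 12 libraries, 6 a group. The values used are raw gene counts per Ensembl identifier, as deposited by the authors in 1 table per library, with no normalisation applied. The submitters' processing notes name FastQC 0.11.9, fastp 0.23.2, STAR 2.7.10a, featureCounts 2.0.1, DESeq2 1.36.0 and mm39, whereas the methods name HISAT2. Annotation release, strand and handling of multi-mapped reads are not given in the sources used here. Symbols were matched for 52073 of 56748 identifiers.

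Groups and replicate numbers were taken from the titles. Counts were fitted with edgeR 4.0.16 (R 4.3.3) after filterByExpr, with TMM factors, the quasi-likelihood F-test and Benjamini-Hochberg adjustment over all 18438 genes tested (threshold 0.05). Each SE given is the absolute log2 fold change divided by the square root of the F of that test. No SE is given for the proteases chosen by name, whose differences are described without a test. Correlations used log2 CPM with a prior count of 2, and exact permutation tests. CPM per kilobase used exon-union lengths of GENCODE vM21. The labels do not say whether replicates were separate animals, so p-values measure the spread between these samples. Scripts were tested on simulated counts. The proteases, gene lists and tests were chosen with earlier results of these data known. Genes named from each list were the 3 called with the largest fold change, plus a fixed set given whatever its result, and the 5 most like the proteases over the CML 2wk libraries, of which 1 is not reported here. Alternatives were DESeq2 1.42.0, other scalings and filters, a replicate block and leaving out libraries, among them the sixth library of each group. For each sixth library, the library number in the name of its deposited table lies outside the run of the other 5. Those runs of 5 are separate for CTRL and CML 2wk, so run of numbers and group cannot be told apart in them. The sixth libraries of both groups lie near each other in number. Whether this order played a part was not tested.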

Additional observations from a re-analysis of the deposited data

Results flagged for a closer look

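Within each group of 6 libraries, the gap between an extreme library and its neighbour was compared with the whole range (Dixon's ratio at its 95% critical value) for the 8 proteases and the named genes. Of 81 groups of values, 21 held such a library, where chance at 1 in 20 gives about 4.05. The library was CML 2wk 2 in 12 of them and CTRL 6 in 4. Several of these genes varied together, so 1 library can be flagged many times, and the ratio was taken on CPM without logarithms. The excess over 4.05 is therefore not read as a result.

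In CML 2wk 2 the proteases far above the next library were Tpsb2 (486.6 CPM against 163.7), Tpsab1 (36.6 against 9.17), Cpa3 (910.6 against 394.4), Mcpt1 (5.23 against 0.920) and Tpsg1 (7.11 against 3.03). The same library stood out for Hdc (222.1 CPM against 67.9), the IgE receptor chains Fcer1a (180.4 against 55.6) and Ms4a2 (59.4 against 25.5), Cd200r3 (54.9 against 24.4), Mitf (28.5 against 14.9), Bhlhe40 (65.8 against 18.4) and Serpinb6a (69.5 against 22.4). Cma1, Mcpt8 and Gzmb were also highest in CML 2wk 2 without passing this ratio.

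In CTRL 6 the genes far above the other control libraries were Tpsb2 (3.81 CPM against 1.195), Tpsab1 (0.226 against 0.0442), Mcpt4 (2.15 against 0.336) and Mrgprb2 (0.528 against 0.149). Gzmb stood out in CTRL 3 (9.11 CPM against 4.22) and Mcpt4 in CML 2wk 4 (26.6 against 11.8). CML 2wk 6 stood out for Serpina3g (157.2 CPM against 100.9) and Prf1 (2.22 against 0.374), and CTRL 2 for a low Cst7 (24.3 against 32.5).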

How the results depend on the processing

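Differences of the 8 proteases kept their sign over 21 fits, from 6.60 to 9.02 on the log2 scale for Tpsb2, 7.14 to 10.2 for Tpsab1, 5.77 to 7.41 for Cma1, 4.39 to 7.40 for Mcpt4, 2.26 to 2.51 for Mcpt8, 1.98 to 2.86 for Cpa3, 2.89 to 3.73 for Gzmb and -1.60 to -0.95 for Prss34. With low CTRL counts, Tpsab1 (10.2) and Mcpt4 (7.40) moved most when the sixth library of both groups was left out. In 7 of 8 the groups stayed without overlap under each scaling. The same held with each library left out, which follows almost by necessity once groups are apart, so nothing is read from it. Called neighbours of the clusters numbered 3, but 9 with no filter on low counts and 10 with DESeq2, where more of the sparse neighbours received a p. Over all genes 10976 were called, 10185 to 12007 with 1 library left out, 10300 without the sixth libraries and 12130 without CML 2wk 2 and 4. Serpinb9 turned to 0.035 with upper-quartile scaling and ran from -0.151 to 0.022 with 1 library left out, and Serpina3g ran from -0.051 to 0.217 and was -0.016 without the sixth libraries. Ms4a2 was -0.009 without CML 2wk 2 and 4, and Gzma ran from -0.82 to 0.017 with 1 library left out. None of these 4 passed the threshold in those settings, and the cause was not tested. The count of pairs of proteases with positive r, 22 of 28, ran from 17, without CML 2wk 6, to 23.

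Libraries with the same replicate number deviated from their group means with correlations of -0.125 to 0.068, so the numbers do not pair the libraries. With the replicate number as a block 9975 genes were called, 4786 higher and 5189 lower. Low CTRL counts limit the folds of Tpsab1 (7 counts in 6 libraries) and Mcpt4 (67, of which 57 in CTRL 6).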
